A study of Mus musculus with 67 samples.

Results

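The cells described here are the cultured mouse aortic cells that remained after dividing cells and endothelial cells were taken out by marker genes, 38 of 67 cells in all. A cell was removed when Mki67 or Top2a, genes of dividing cells, had a normalized count of 10 or more, or when at least 3 of 10 endothelial marker genes (Pecam1, Cdh5, Kdr, Tek, Vwf, Emcn, Egfl7, Cldn5, Tie1 and Esam) did. The cells were thus chosen by measured values of these 12 genes. This left 34 of 45 passage 2 cells and 4 of 22 passage 1 cells, called retained cells below. Of the 29 removed cells, 26 had Mki67 or Top2a at the threshold (10 at passage 2 and 16 at passage 1), 7 had the endothelial markers (2 at passage 2 and 5 at passage 1) and 4 of these had both (1 at passage 2 and 3 at passage 1). The question was whether contractile and matrix genes still differ between the passages among the cells that are left.

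The study isolated vascular smooth muscle cells from the descending aorta of male C57Bl6 mice aged 3 to 4 months, with no genetic change or drug named. Both passages were grown in DMEM with 10% serum and 1% antibiotic, and passage 2 cells came from passage 1 cells that were detached with trypsin after 5 undisturbed days and plated again. Each cell gave 1 RNA-seq library. Animals and cultures are not named in the labels, which also give all passage 2 libraries a different prefix from all passage 1 libraries, so each passage counts as 1 sample and passage and library set cannot be told apart. P-values and standard errors were therefore not computed, and SDs are the spread between cells.

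Smooth muscle cells of the vessel wall hold actin, myosin and the proteins that anchor them, and their contractile genes are driven by serum response factor (SRF) with its coactivator myocardin. In culture these cells are known to lose contractile gene expression, to divide and to make more extracellular matrix, a change called phenotypic modulation. Collagens and elastic fibres give the wall its stiffness and recoil, whereas osteopontin and versican are matrix genes linked to injury and migration.

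The 34 passage 2 cells held 548419 to 1358273 reads each, with a median of 900070.5, and passage 1 cells 3, 5, 7 and 17 held 1231605, 1251892, 1372041 and 927254. A median of 7199.5 genes had a read in passage 2 cells and 7786.5 in passage 1 cells. Mitochondrial genes took a median of 5.21% of reads at passage 2 and 5.40% at passage 1. Over the 8474 genes kept after a filter on low values, the median log2 ratio (passage 2 over passage 1, from means over cells plus 1) was -0.01, 49.6% of genes had a ratio above 0 and 50.4% below 0 (ratios against values near 0 depend on the added 1), 27.3% were at least 2-fold higher at passage 2 and 24.8% at least 2-fold lower.

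The higher of Mki67 and Top2a reached 3.25 in the highest unmarked passage 2 cell and 10.6 in the lowest marked one, against 6.63 and 34.9 at passage 1. Mki67 was at 0 in all 4 retained passage 1 cells, whereas Top2a was at 1.95, 1.64, 6.39 and 6.63 in cells 3, 5, 7 and 17. Unmarked cells of either passage had at most 1 endothelial marker at 10, and marked cells had at least 7 at passage 2 and 4 at passage 1. The endothelial markers were near 0 in the retained cells, and none of the 10 passed the filter on low values. Esam was at 137 in 1 passage 2 cell and Pecam1 at 10.7 in 1, and no endothelial marker reached 10 in the retained passage 1 cells. Since these genes chose the cells, their levels are a description of the rule.

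The name non-cycling did not hold for passage 1 cells 5 and 17 when other cell cycle genes were read, and cell 3 was mixed. S phase genes at a value of 10 or more numbered 1 to 7 in passage 2 cells (median 3), against 8, 14, 5 and 16 in passage 1 cells 3, 5, 7 and 17. G2 and M phase genes at 10 numbered 0 to 3 in passage 2 cells (median 1), against 7, 5, 3 and 7 in the passage 1 cells. Cells 3, 5 and 17 lay above every passage 2 cell on both counts, while cell 7 overlapped the passage 2 range. Cell 3 also had a read in more genes (9036) than any of the 34 passage 2 cells, and the part of this in its counts was not tested. Its median log2(value + 1) over the kept S phase genes was 4.23, above all 34 passage 2 cells. Over the kept G2 and M phase genes it was 0, with no passage 2 cell lower. At least 3 S phase genes were at 10 in 25 of 34 passage 2 cells and in all 4 passage 1 cells.

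Over the 20 listed S phase genes, which serve replication, the median log2 ratio was -1.92, with 1 gene above 0 (Mcm2, 0.68, or -1.03 without passage 2 cell 3) and 19 below, where 50.4% of all kept genes were below 0. The 20 listed G2 and M phase genes, which serve mitosis, also had a median of -1.92, with 3 above 0 (Cenpf 0.82, Cenpe 0.31 and Aurka 0.14), 15 below and 2 at 0. The 16 S phase genes that passed the filter on low values had a median of -2.61 and the 9 G2 and M phase genes -3.94, but 9 and 8 of them passed through passage 1 alone, so their direction was largely set by the filter. Kif20b, a mitotic motor, was lowest of the kept G2 and M phase genes with -6.28, from values of 167 and 189 in cells 5 and 17 (-5.61 without cell 17), and Ccna2, cyclin A, highest with -1.06, or -0.09 without cell 17. Of the kept S phase genes Rfc4, a clamp loader subunit, was highest with -0.40, or 1.83 without cell 17.

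The cell cycle genes at issue differed from one passage 1 cell to the next. Rrm2, a subunit of ribonucleotide reductase, ranged from 0 to 43.4 in passage 2 cells with a median of 0.802, and was at 3.90, 803, 1.92 and 205 in passage 1 cells 3, 5, 7 and 17. Uhrf1, which keeps DNA methylation through replication, ranged from 0 to 24.3 (median 0) at passage 2 and was at 5.20, 314, 18.5 and 249 at passage 1. Cdk1, the mitotic kinase, ranged from 0 to 38.5 (median 0) at passage 2 and was at 0, 343, 65.1 and 84.7 at passage 1. Cell 5 was highest for all of these, and cells 3 and 7 were low for Rrm2. Without cell 5 the median of the kept S phase genes was -1.25 and the log2 ratios of Rrm2, Uhrf1 and Cdk1 were -3.98, -5.02 and -3.69, against -5.81, -5.70 and -4.98 with it. The passages therefore still differed in cell cycle genes after the removal, and the part of this in the results below was not tested.

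**Figure D1:**
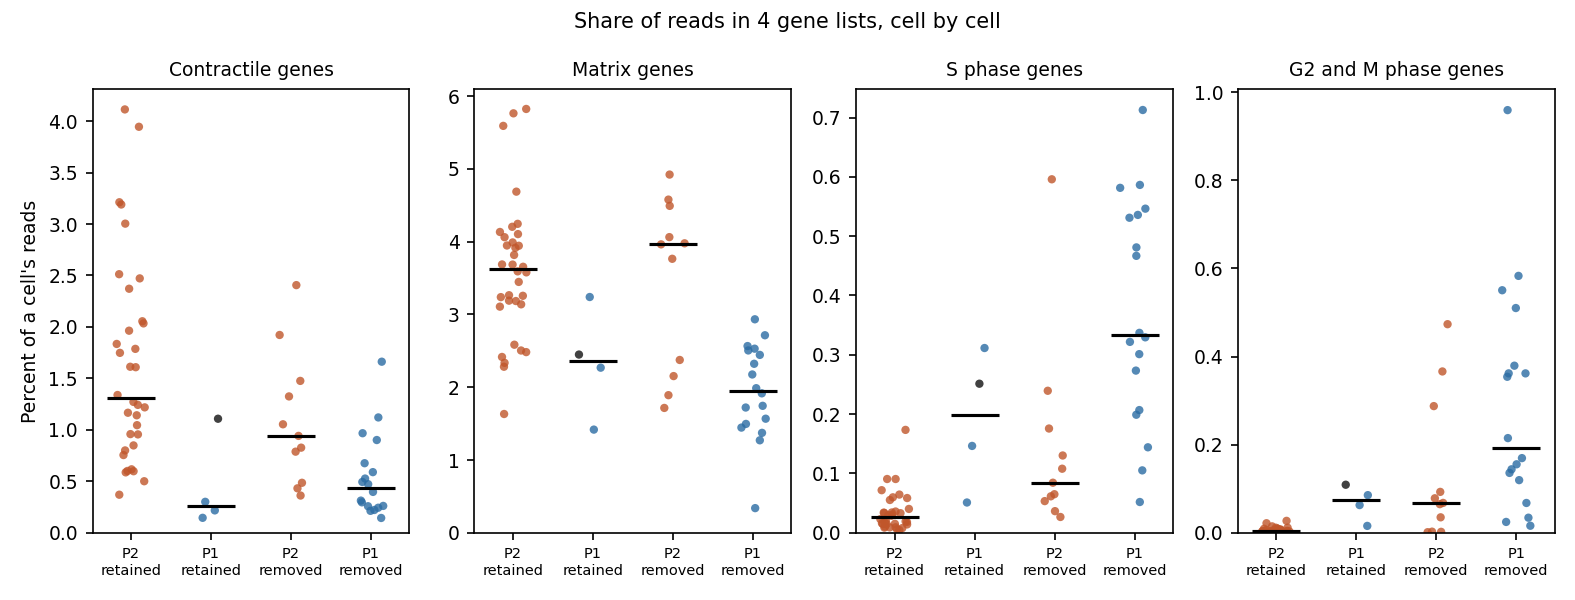
Percent of each cell's reads in contractile, matrix, S phase and G2 and M phase genes, for retained and removed cells of passage 2 (orange) and passage 1 (blue), with passage 1 cell 17 in black and lines at medians. Retained passage 1 cells 3, 5 and 7 sit below all 34 retained passage 2 cells for contractile genes (0.145%, 0.217% and 0.301%), and all 4 overlap or exceed the upper part of the retained passage 2 range for the cell cycle lists.

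Markers were used to check the label smooth muscle cell. All 10 smooth muscle markers are also on the contractile list below, so this check and the contractile results share their values. Of 10 smooth muscle markers, 2 to 9 were at 10 or more in retained passage 2 cells (median 6), and 33 of 34 of these cells had at least 3. Passage 1 cells 3, 5, 7 and 17 had 2, 1, 2 and 10 of the markers at 10, so the label rests on few markers in 3 of the 4. Of 10 fibroblast markers, 0 to 7 were at 10 in passage 2 cells (median 2.5), against 1, 4, 5 and 1 in passage 1 cells 3, 5, 7 and 17. The summed share of reads in fibroblast markers ran from 0.000890% to 0.449% in passage 2 cells (median 0.0679%) and was 0.00382%, 0.0713%, 0.216% and 0.0301% in the passage 1 cells. Within that list Clec3b had no read in any retained cell, and Dcn was at 0.650, 183, 1114 and 0.737 in passage 1 cells 3, 5, 7 and 17. The part of these differences in the results below was not tested. No lymphocyte or erythroid marker (14 genes) reached 10 in any retained cell of either passage, but markers of other cell types did. A macrophage marker was at 10 in passage 1 cells 5, 7 and 17 and in 8 passage 2 cells. A chondrocyte marker was at 10 in cells 3, 5 and 7 and in 16 passage 2 cells. A Schwann marker was at 10 in cell 5 and in 8 passage 2 cells, and an adipocyte marker in cells 3, 7 and 17 and in 19 passage 2 cells. A mesothelial or epithelial marker was at 10 in 4 passage 2 cells and in no retained passage 1 cell.

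Contractile genes were higher at passage 2 in the retained cells. Of 25 listed genes 21 passed the filter on low values. Of these, 20 had a ratio above 0 and 19 were at least 2-fold higher, beside 49.6% and 27.3% of all kept genes. The median log2 ratio of the 21 genes was 1.84, a 3.59-fold difference. Of the 21, 6 passed the filter through passage 2 alone and 1 through passage 1 alone, and over all 25 listed genes the median was 1.72, with 22 above 0, 2 below and 1 at 0. Over all 67 cells the same genes had a median of 1.22. Taking every pair of a passage 2 and a passage 1 cell, the passage 2 cell was the higher in a median of 78.7% of pairs, beside 43.4% over all kept genes, and 10 of the 21 were higher at passage 2 in at least 80% of pairs, beside 3.12% of all kept genes. Retained cells of the passages are part of the 67, so the medians are given side by side and no test of their difference was made.

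The contractile median depended on which passage 1 cells were counted. It was 1.66 without cell 3, 1.52 without cell 5, 1.74 without cell 7 and 3.29 without cell 17, and leaving out single passage 2 cells gave 1.51 to 1.88. Without cell 17 all 21 genes had a ratio above 0, and without cell 3, 5 or 7 it was 20 of the 21. With cycling cells alone removed the median was 1.97, with endothelial marker cells alone removed 1.36, and between the cycling cells of the passages, 9 at passage 2 and 13 at passage 1 with no endothelial mark, it was 0.80.

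As a share of a cell's reads, the 25 contractile genes took 0.370% to 4.11% in retained passage 2 cells, with a median of 1.30%, and 0.145%, 0.217%, 0.301% and 1.11% in passage 1 cells 3, 5, 7 and 17. Cells 3, 5 and 7 lay below all 34 passage 2 cells, while cell 17 lay below 22 and above 12 of them. Among removed cells the share had a median of 0.941% at passage 2 (11 cells) and 0.435% at passage 1 (18 cells). Retained passage 1 cells 3, 5 and 7 thus lay below the median of the removed passage 1 cells, and cell 17 above it. A low summed share was not particular to contractile genes. For the share in housekeeping genes cells 3, 5, 7 and 17 lay below 34, 33, 34 and 16 passage 2 cells. By the median log2(value + 1) over kept genes they lay below 33, 34, 33 and 21 for contractile genes. For housekeeping genes that median lay below 12, 7, 10 and 3.

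Genes of the thin filament, on which the force is borne, had 7 of 8 kept members higher at passage 2, with a median log2 ratio of 1.93. Acta2, smooth muscle actin (chromosome 19, 34241090 to 34255590 in GRCm38), ranged from 153 to 17576 in passage 2 cells with a median of 3116, and was at 12.3, 8.20, 397 and 2843 in passage 1 cells 3, 5, 7 and 17. Cells 3 and 5 were below every passage 2 cell and cell 17 lay in the middle of them. Its means were 4382 ± 4191 (SD, n = 34 cells) and 815 ± 1364 (n = 4 cells), a log2 ratio of 2.42, or 4.97 without cell 17. Actin genes share near-identical sequence, and how the authors counted reads that map to several places is not given in the sources used here, so Acta2 and Actg2 are uncertain.

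Tagln, transgelin, an actin-binding protein (chromosome 9, 45929619 to 45936058), ranged from 20.3 to 6547 with a median of 1630 in passage 2 cells, and was at 3.25, 11.5, 1.92 and 1161 in the passage 1 cells. Its lowest passage 2 cell was above cells 3, 5 and 7. The log2 ratio was 2.80, or 8.30 without cell 17. Cald1, caldesmon, which restrains myosin on the filament, ranged from 907 to 8251 (median 2666) at passage 2 and was at 115, 1000, 489 and 1037 at passage 1, with a log2 ratio of 2.10. The lowest passage 2 cells overlapped passage 1 cells 5 and 17 only, and Cald1 was higher at passage 2 in 95.6% of cell pairs. The tropomyosin genes Tpm1 and Tpm2 had log2 ratios of 1.60 and 1.24, with the passages overlapping. Without passage 1 cell 7 the ratio of Tpm1 was 2.19, and without cell 17 that of Tpm2 was 2.00.

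Lmod1, leiomodin, which seeds actin filaments, ranged from 0 to 251 (median 46.4) in passage 2 cells and was at 0, 0, 4.47 and 14.7 in passage 1 cells, with a log2 ratio of 3.66. Without cell 17 its ratio was 4.88. Cnn1, calponin, was at 10 or more in 6 of 34 passage 2 cells and in 1 of 4 passage 1 cells, which was cell 17 at 32.4, and the others were at 0. Its median was 0 at passage 2, and its log2 ratio of 1.77 became 0.92 without passage 2 cell 38 and -0.65 with only the 16 passage 2 cells in the depth range of the passage 1 cells. Without cell 17 passage 1 had no read of Cnn1. Actg2, a smooth muscle actin of hollow organs, was the kept contractile gene lower at passage 2. It was at 0 to 216 (median 0) in passage 2 cells and at 0, 3.28, 0 and 88.4 in passage 1 cells, a log2 ratio of -1.46 that was 2.05 without passage 1 cell 17 and -3.32 without passage 2 cell 37.

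Genes of myosin and its regulation, the motor, had 5 of 5 kept members higher at passage 2, with a median of 1.72. Myl9, the regulatory light chain (chromosome 2, 156775420 to 156781658), ranged from 1.19 to 2911 with a median of 370 in passage 2 cells, and was at 1.30, 0, 30.7 and 118 in passage 1 cells. Passage 1 cell 5 lay below the passage 2 range and the other passage 1 cells in its lower part. The log2 ratio was 3.93, or 5.65 without cell 17. Mylk, the kinase that switches myosin on by phosphorylating that light chain, had 6113 reads in the passage 2 cells and 5 in the passage 1 cells, all 5 of them in cell 17.

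Mylk varied more than its partner within passage 2. It ranged from 0 to 2008 with a median of 5.96 and was at 10 or more in 16 of 34 passage 2 cells, a share of 47.1% with an exact 95% interval from 29.8 to 64.9. No passage 1 cell reached 10, for which the interval runs up to 60.2%. Its log2 ratio was 6.48, and 5.91 without passage 2 cell 5. Over all 67 cells its ratio was 2.45. Myh11, smooth muscle myosin heavy chain (chromosome 16, 14194535 to 14291372), ranged from 0 to 618 (median 0.550) and was at 0.650, 0, 0 and 64.8 in passage 1 cells. It reached 10 in 14 of 34 passage 2 cells, or 41.2% (interval 24.6 to 59.3), while passage 1 had 1 such cell of 4 (0.631 to 80.6). These intervals overlap and cover the counting of cells only. Its log2 ratio was 1.72, and 5.56 without cell 17.

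Myl6, the essential light chain used in many cell types, differed less but more evenly, with 168 to 1208 (median 515) at passage 2 and 172, 245, 219 and 336 at passage 1. Its log2 ratio of 1.13 was between 1.00 and 1.33 whichever retained cell was left out, and it was higher at passage 2 in 89% of cell pairs. The phosphatase subunit gene Ppp1r12a had a log2 ratio of 1.14, or 1.73 without passage 1 cell 3, beside 0.20 over all 67 cells. Its partner Ppp1r14a did not pass the filter, with 39 reads at passage 2 and 0 at passage 1.

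Anchors and linkers, which tie filaments to the membrane and the matrix, had 7 of 7 kept members higher at passage 2, with a median of 2.01. Vcl, vinculin (chromosome 14, 20929398 to 21033676), ranged from 41.9 to 4479 with a median of 1072 in passage 2 cells, and was at 327, 419, 183 and 358 in passage 1 cells. The passage 1 cells were close to each other and most passage 2 cells were above them. The log2 ratio was 2.01, between 1.82 and 2.16 whichever cell was left out. Flna, filamin, had a log2 ratio of 1.38. Itga8, an integrin subunit of smooth muscle, ranged from 0 to 956 (median 148) at passage 2 and was at 0.650, 0, 1.28 and 263 at passage 1. It was at 10 in 30 of 34 passage 2 cells and in cell 17 alone at passage 1, and its log2 ratio of 2.05 was 7.41 without that cell.

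Smtn, smoothelin, and Synpo2, an actin bundling protein, had log2 ratios of 2.38 and 2.85, against 0.87 and 1.22 over all cells. Without passage 1 cell 3 the ratio of Smtn was 3.92, and without cell 17 passage 1 had no read of Synpo2. Csrp1 had a log2 ratio of 1.84, or 3.29 without cell 17. Pdlim7 differed least of the kept genes higher at passage 2, with a log2 ratio of 0.43 and the higher value at passage 2 in 45.6% of pairs. Des, desmin, had 2 reads at passage 2 and 0 at passage 1.

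Of the genes of transcription and ion handling only Myocd, myocardin, passed the filter. It was at 10 in 5 of 34 passage 2 cells and in cell 17 at passage 1 (16.2), and the other 3 passage 1 cells were at 0. Its log2 ratio was 1.43, and 0.27 without passage 2 cell 6, and without passage 1 cell 17 there was no passage 1 read. With cycling cells alone removed the ratio was -1.50, with the endothelial marker cells that do not divide counted in. Pln had no read, and Kcnmb1 had a value of 16.9 in cell 17 and 0 in the other passage 1 cells.

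**Figure D2:**
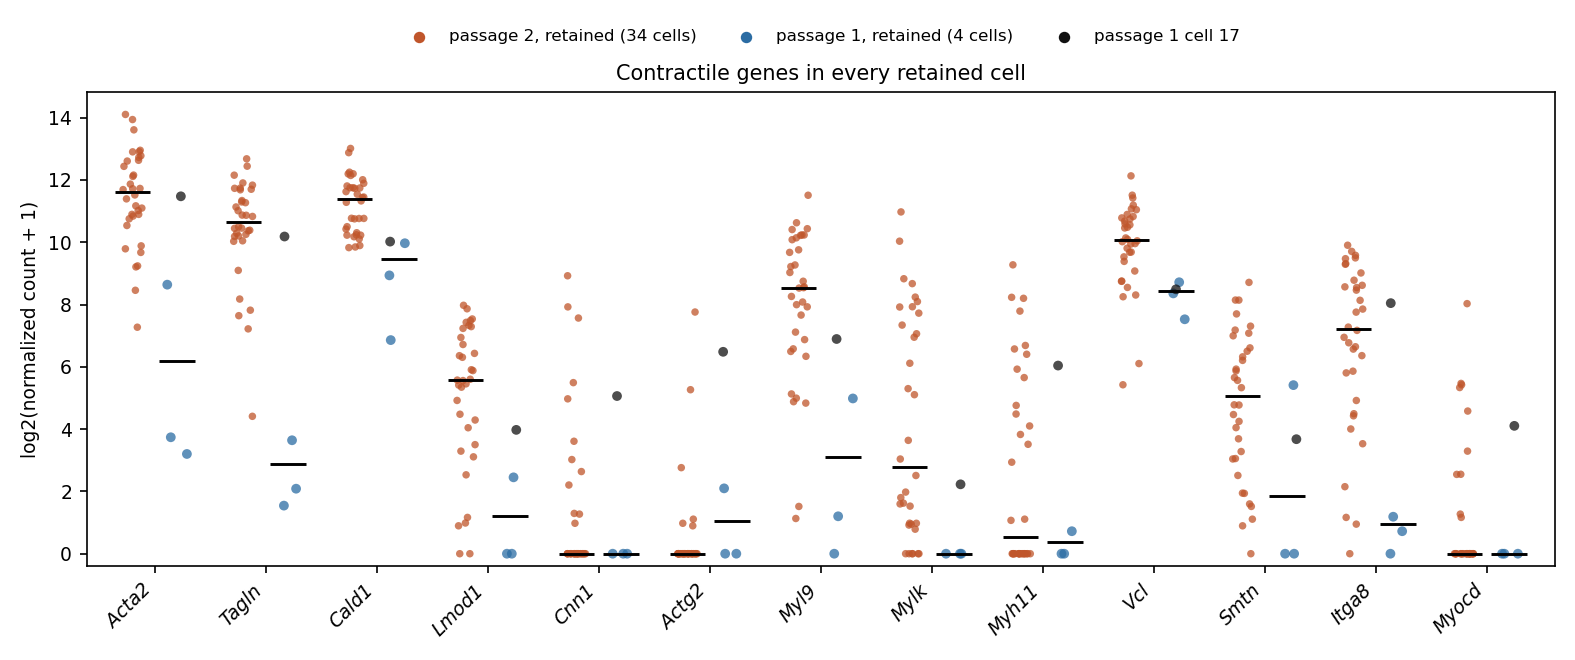
log2(normalized count + 1) of 13 contractile genes in each retained cell, with passage 2 cells in orange to the left of passage 1 cells in blue, passage 1 cell 17 in black and lines at the medians. Cell 17 lies among the passage 2 cells for Acta2 (2843) and Itga8 (263), while the other passage 1 cells lie at the low end.

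The promoters of the contractile genes were searched for the CArG box, the site of SRF, as SRF is known to drive such genes. The share with a box therefore describes the list and not the passages. RefSeq sequences of 250 bases before to 50 bases after a gene start (GRCm38.p6) were matched for 21 of 25 contractile genes, and a strict CArG box on either strand, which reads alike on both, was in 3 of them (14.3%), beside 488 of 27025 genes (1.81%). It was in 0 of 24 matched matrix genes. The 3 promoters are given to show where the box lies, from 5′ to 3′ with the box in capitals. They lie at chr2:156775214-156775513 on the plus strand (Myl9), chr14:20929148-20929447 on the plus strand (Vcl) and chr10:128492960-128493259 on the minus strand (Myl6), and the boxes start 161, 227 and 50 bases before the gene start.
Myl9: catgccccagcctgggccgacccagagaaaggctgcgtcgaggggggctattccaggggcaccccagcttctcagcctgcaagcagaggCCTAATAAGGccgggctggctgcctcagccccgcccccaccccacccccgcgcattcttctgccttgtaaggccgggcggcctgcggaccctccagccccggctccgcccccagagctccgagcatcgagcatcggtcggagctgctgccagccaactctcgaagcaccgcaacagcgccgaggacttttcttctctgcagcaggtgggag
Vcl: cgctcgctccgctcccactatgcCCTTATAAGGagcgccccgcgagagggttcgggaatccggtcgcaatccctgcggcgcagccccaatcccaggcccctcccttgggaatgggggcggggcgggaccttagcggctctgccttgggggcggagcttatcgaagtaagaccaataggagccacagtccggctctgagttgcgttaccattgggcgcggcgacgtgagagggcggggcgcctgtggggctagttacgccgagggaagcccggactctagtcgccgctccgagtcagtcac
Myl6: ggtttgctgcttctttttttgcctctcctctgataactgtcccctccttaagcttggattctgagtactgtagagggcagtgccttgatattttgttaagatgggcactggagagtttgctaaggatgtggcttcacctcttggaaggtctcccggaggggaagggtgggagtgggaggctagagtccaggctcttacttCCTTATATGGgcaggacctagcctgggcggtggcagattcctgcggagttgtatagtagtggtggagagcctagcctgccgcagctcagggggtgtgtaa
These 3 genes were each higher at passage 2 in 89% of cell pairs, beside a median of 78.7% over the 21 kept contractile genes. Of those 21, 10 were higher in at least 80% of pairs. A link between the box and the passage difference was not tested. A match of letters does not show that a factor binds, and a gene without a match may hold the site outside the window.

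Matrix genes were higher at passage 2 on balance, but less evenly than contractile genes. Of 43 listed genes 41 passed the filter, and 30 had a ratio above 0, beside 49.6% of all kept genes. At least 2-fold higher were 18, beside 27.3% of all kept genes, and 4 were at least 2-fold lower, beside 24.8%. The median log2 ratio was 0.60, a 1.51-fold difference, and 0.86 over all 67 cells with the same genes. It was 0.78 with cycling cells alone removed and 0.92 with endothelial marker cells alone removed. The median percentage of pairs was 63.2%, with 10 genes higher at passage 2 and 2 higher at passage 1 in at least 80% of pairs, beside 3.12% and 7.4% of all kept genes. Without cells 3, 5, 7 and 17 in turn the median was 0.42, 0.53, 1.06 and 0.64, and leaving out single passage 2 cells gave 0.49 to 0.63.

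The 43 matrix genes took 1.63% to 5.82% of reads in passage 2 cells, with a median of 3.62%, and 1.42%, 2.27%, 3.24% and 2.45% in passage 1 cells 3, 5, 7 and 17. Cell 3 lay below all passage 2 cells, cell 5 below 33 of them, cell 17 below 30 and cell 7 below 22. Cell 17, with the highest contractile share of the passage 1 cells, was not the highest for matrix genes. Removed cells had medians of 3.96% at passage 2 and 1.95% at passage 1. Other measures of the list ranked the cells differently. By the median log2(value + 1) over kept matrix genes, cells 3, 5, 7 and 17 lay below 29, 29, 6 and 25 passage 2 cells. By the number of matrix genes at 10 they lay below 9, 14, 6 and 14.

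Fibrillar collagen genes, which encode the load-bearing fibres, had a median log2 ratio of 1.12 over 5 genes, 3 higher and 2 lower. Col1a1 ranged from 144 to 1983 (median 544) in passage 2 cells and was at 190, 91.9, 451 and 399 in passage 1 cells, with a log2 ratio of 1.12. Its partner in type I collagen, Col1a2, did not differ in that way, with 254 to 3973 (median 1165) at passage 2 and 870, 2025, 2528 and 563 at passage 1, a log2 ratio of -0.10 and the higher value at passage 2 in 49.3% of pairs. Col3a1 had a log2 ratio of 1.92, or 2.85 without passage 1 cell 5, and Col5a2 one of 1.27. Col5a1 had a log2 ratio of -0.58 and the higher value at passage 1 in 77.9% of pairs.

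Basement membrane genes had a median of 0.08 over 7 genes, with Hspg2, perlecan, also at 0.08 and Nid1, nidogen, at -0.63, or -0.04 without passage 1 cell 5. Col4a1 and Col4a2, chains of type IV collagen, both had log2 ratios of 1.33, and that of Col4a1 was 2.23 without cell 7. Lama4, a laminin chain, ranged from 0 to 77.6 (median 0) in passage 2 cells and was at 0.650, 70.5, 193 and 5.16 in passage 1 cells, with a log2 ratio of -3.44. Cells 5 and 7 carried this, and without cell 7 the ratio was -2.07, without passage 2 cell 33 -4.06. Over all 67 cells its ratio was -0.53. The laminin chain genes Lamb1 and Lamc1 had log2 ratios of 0.14 and -0.19 in the retained cells, and of -0.64 and 0.19 over all cells. Lamb1 was lower at passage 2 in 80.9% of pairs, and its ratio was -0.73 without passage 2 cell 36.

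Proteoglycan genes had a median log2 ratio of 0.33 over 6 kept of 7 genes and differed in both directions. Fmod and Prelp, small leucine-rich proteoglycans that bind collagen fibrils, were higher at passage 2. Fmod ranged from 0 to 972 (median 70.5) at passage 2 and was at 0.650, 0, 0 and 0 at passage 1, which was 5671 reads against 1 read, a ratio per total reads of 878 (exact 95% interval 157 to 34673). Prelp ranged from 0 to 1211 (median 158) and was at 0, 69.7, 0.639 and 0 in passage 1 cells, a log2 ratio of 3.81, or 7.74 without cell 5. Bgn, biglycan, had a log2 ratio of 0.41, while Dcn and Lum, which are also fibroblast markers, had -0.49 and 0.25. Dcn stood at 1.89 and Lum at 1.75 without passage 1 cell 7.

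Vcan, versican, a large proteoglycan of provisional matrix (chromosome 13, 89655312 to 89742509), was at 0 to 10.7 (median 0) in passage 2 cells and at 459, 58.2, 0 and 0 in passage 1 cells 3, 5, 7 and 17. The difference thus lay in cells 3 and 5, whereas cells 7 and 17 had no read, like most passage 2 cells. The log2 ratio was -6.14, or -3.47 without cell 3. Has2, which makes hyaluronan, had no read in any retained cell.

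Elastic fibre genes had a median log2 ratio of 1.93 over 7 genes, 6 of them higher. Fbln5, fibulin 5, which assembles elastic fibres (chromosome 12, 101746565 to 101819055), ranged from 325 to 6156 with a median of 3225 in passage 2 cells, and was at 412, 781, 1285 and 823 in passage 1 cells. The groups barely overlapped, with 95.6% of pairs higher at passage 2. Means were 3151 ± 1303 (SD, n = 34 cells) and 825 ± 358 (n = 4 cells), and the log2 ratio of 1.93 stayed between 1.71 and 2.23 whichever cell was left out. Eln, elastin, ranged from 0 to 319 (median 11.7) and was at 0, 0.820, 0 and 3.68 at passage 1, with a log2 ratio of 4.67, or 5.41 without cell 17.

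The other elastic fibre genes ranged widely. Fbn1, fibrillin, had a log2 ratio of 0.05, or 0.68 without passage 1 cell 7. Mfap5 had one of 0.05, beside 1.29 over all cells. Mfap4 had 4.82, with a median of 2.14 at passage 2, and Ltbp2 3.61, set against a value of 29.9 in passage 1 cell 3 and no read in the other passage 1 cells. Emilin1 had -0.42, beside 0.56 over all cells, and 0.91 without cell 7.

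Glycoproteins and matricellular proteins, which signal to cells, had a median of 0.98 over 11 genes, 9 of them higher. Ccn2, connective tissue growth factor, ranged from 129 to 1830 (median 762) in passage 2 cells and was at 68.9, 190, 319 and 312 in passage 1 cells. It was higher at passage 2 in 97.8% of pairs, the most of any matrix gene kept, and had a log2 ratio of 1.94, between 1.64 and 2.16 whichever cell was left out. Ccn1 and Mgp, matrix Gla protein, an inhibitor of calcification, had log2 ratios of 1.68 and 2.28. Mgp was at 2134 in passage 1 cell 7, and its ratio without that cell was 3.67.

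Thbs1, thrombospondin, was at 171 to 8510 (median 1913) in passage 2 cells and at 248, 9.02, 31.9 and 1979 in passage 1 cells. Cell 17 was close to the passage 2 median, and the log2 ratio was 1.89 with it and 4.44 without it. Postn, periostin, and Tnc, tenascin, behaved alike, with log2 ratios of 2.20 and 0.82, and 6.56 and 4.58 without cell 17, which held 133 and 246. Fn1, fibronectin, had a log2 ratio of 0.60 (1.13 over all cells) and Sparc 0.25. Fbln2 had 0.98, or 1.81 without cell 7.

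Spp1, osteopontin (chromosome 5, 104435118 to 104441050), ranged from 0 to 1721 with a median of 1.94 in passage 2 cells, and was at 1466, 5108, 1630 and 0 in passage 1 cells 3, 5, 7 and 17. Of 34 passage 2 cells 5 were at 10 or more, and cell 17 was at 0. The log2 ratio was -5.07, and -7.60 without passage 2 cell 36, which held the high passage 2 value, and -4.08 without passage 1 cell 5. Cells 3, 5 and 7 were thus low for contractile genes and high for Spp1, and cell 17 the reverse. Cthrc1, a collagen triple helix repeat protein, had a log2 ratio of -2.59, and -3.48 without passage 2 cell 26.

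Genes of cross-linking and processing had a median of 0.53 over 5 kept genes. Loxl2 did not pass the filter, with 178 reads at passage 2 and 0 at passage 1. Lox, lysyl oxidase, which cross-links collagen and elastin, ranged from 32.7 to 4706 (median 1258) in passage 2 cells and was at 61.1, 297, 325 and 524 in passage 1 cells, with a log2 ratio of 2.29. Loxl1 had 0.53 (1.45 over all cells) and Plod2 0.15, which was 1.01 without passage 1 cell 7. P4ha1, a prolyl hydroxylase, had 1.42, and Serpinh1, a collagen chaperone, had -0.16, or 0.47 without cell 17.

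**Figure D3:**
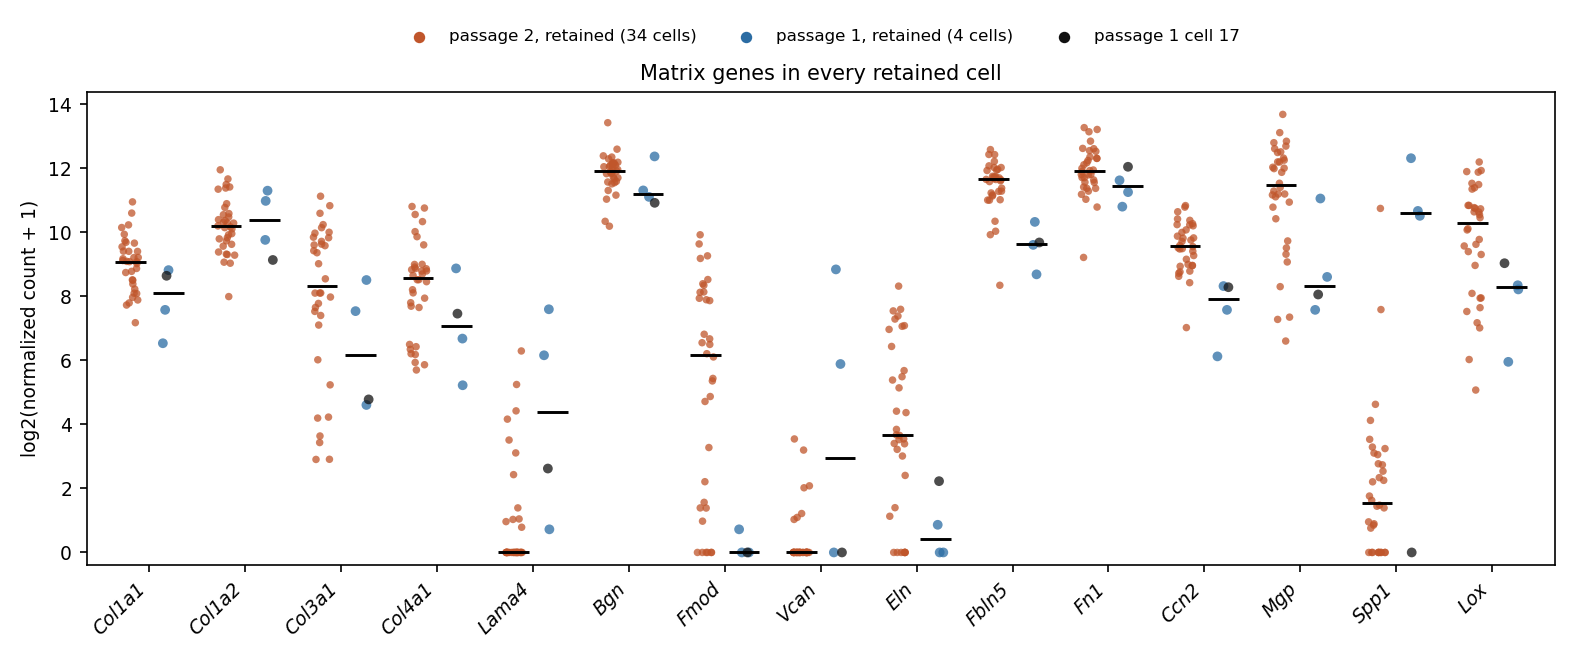
log2(normalized count + 1) of 15 matrix genes in each retained cell, passage 2 (orange) left of passage 1 (blue), passage 1 cell 17 in black, lines at medians. Fbln5 (passage 2 median 3225) and Ccn2 (762) separate most cells, Col1a2 and Bgn overlap throughout, and Spp1 and Vcan are high in some but not all passage 1 cells. Spp1 is also high in a passage 2 cell.

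Of the 62 contractile and matrix genes kept, 15 had a log2 ratio that differed by over 1 between the retained cells and all 67. It lay further from 0 in the retained cells for Lmod1, Myl9, Mylk, Synpo2, Smtn, Csrp1, Fmod, Prelp, Postn, Lama4, Vcan and Cthrc1, and nearer 0 for Itga8, Mfap5 and Tnc. The sign differed for 3 genes, Lamb1, Lamc1 and Emilin1. For Itga8 the ratio was 3.18 over all cells and 2.05 in the retained cells, where cell 17 is 1 of 4 passage 1 cells instead of 1 of 22. The same counts were not made over all kept genes, so such changes are not shown to be particular to these lists. Over all 67 cells 14.4% of genes were at least 2-fold higher at passage 2 and 19.4% at least 2-fold lower. In the retained cells it was 27.3% and 24.8%.

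**Figure D4:**
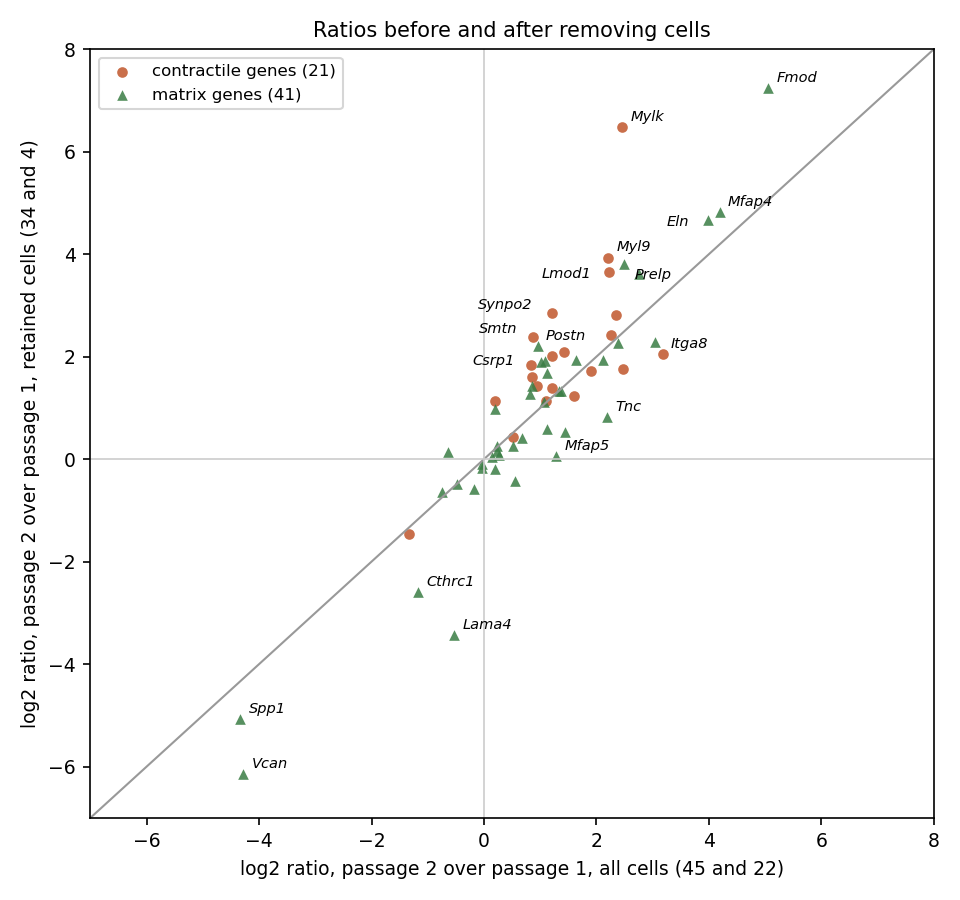
log2 ratios (passage 2 over passage 1) of 21 contractile (circles) and 41 matrix genes (triangles) in the retained cells, against those over all 67 cells, with the line of equality. Contractile genes such as Mylk (6.48 and 2.45) lie mostly above the line, while matrix genes lie on both sides of it.

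Other gene lists were read in the same way, and their counts of genes higher stand beside 49.6% of all kept genes above 0. Over all listed genes, kept or not, the medians were 1.64 for growth arrest, 1.00 for immediate early, 0.98 for inflammatory and 0.79 for growth factor genes. Notch genes, through which neighbouring mural cells signal, had a median log2 ratio of 2.86 over 8 kept of 12 genes, 7 above 0 and 6 at least 2-fold higher, beside 49.6% and 27.3% of all kept genes, and of 3.64 without passage 1 cell 7 and 3.83 without cell 17. Jag1, a ligand (chromosome 2, 137081456 to 137116644), ranged from 62 to 7409 with a median of 1694 in passage 2 cells, and was at 36.4, 308, 179 and 22.1 in passage 1 cells. It was higher at passage 2 in 98.5% of pairs, with a log2 ratio of 3.93 that was 4.71 without cell 5. The receptor gene Notch3 and the target Hey1 had no read in the 4 passage 1 cells and 1109 and 397 in passage 2 cells. With 3 reads over the passage 1 cells as the floor, Notch3 was at least 57.2-fold higher at passage 2. The targets Heyl and Hes1 had log2 ratios of 6.57 and 1.78 (Hes1 3.19 without cell 7), and Rbpj, the transcription factor of the pathway, -0.96. With these genes at their bound the median was also 2.86. As 3 of the 8 passed the filter through passage 2 alone, the median over all 12 listed genes is given too, 1.72, with 10 above 0, 1 below and 1 at 0.

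Growth arrest genes had a median of 1.67 over 13 kept of 16 genes, 10 higher. Btg1, an anti-proliferative gene, ranged from 429 to 5745 (median 1936) at passage 2 and was at 506, 185, 200 and 1586 at passage 1, a log2 ratio of 1.88, or 2.94 without cell 17. Btg2 was at 110, 2.46, 1932 and 0.737 at passage 1, and its ratio of 1.97 was 5.69 without cell 7. Cdkn1a, the p21 inhibitor, was at 108, 0, 0 and 0.737 at passage 1 with a log2 ratio of 1.89, or 6.39 without cell 3. Cdkn2b, an inhibitor of G1 kinases, had 412 reads in passage 2 cells, with a median value of 0, and 1 in passage 1 cells, a ratio per total reads of 63.8 (11.4 to 2525). Sesn1, a stress gene, had -1.59, or 0.26 without cell 3 and -2.41 without passage 2 cell 25. The passage 1 levels of Btg2, Cdkn1a and Sesn1 rested on 1 or 2 of the 4 cells.

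SRF and YAP target genes, which answer to tension and cell shape, had a median of 1.24 over 14 genes, 12 higher, and of 2.38 without passage 1 cell 5. Crim1, a membrane protein that binds growth factors, and Lats2, a kinase of the Hippo pathway, had log2 ratios of 4.72 and 4.01, beside 0.87 and 1.10 over all cells. Crim1 was at 6.12 without cell 17. Fhl1, a LIM protein, had 0.63, or 1.88 without cell 17. Axl, a receptor of Gas6, was at 2.85 to 527 (median 79.7) in passage 2 cells and at 241, 479, 446 and 436 in passage 1 cells, with a log2 ratio of -1.43. The list of actomyosin and focal adhesion genes, which serve tension in many cell types, had 14 of 20 kept genes higher and a median of 0.52. Actb, cytoplasmic actin, had 0.79. Myh10, a non-muscle myosin, had the highest ratio of the list, 2.16, or 3.69 without passage 1 cell 7, and Itga5, a fibronectin receptor subunit, the lowest, -2.16, or -0.28 without cell 5. Myl12a and Myh9, non-muscle myosin chains, were higher at passage 2 in 95.6% and 97.1% of pairs, with log2 ratios of 1.45 and 1.46.

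Immediate early and dissociation stress genes, which can answer to the handling of cells, had a median of 1.16 over 14 kept of 17 genes, 13 higher, beside 2.05 over all cells. It was 0.83 without passage 1 cell 17 and 1.99 without cell 5. Atf3, a stress transcription factor, had a log2 ratio of 3.68, or 6.28 without cell 3, and Klf4, a transcription factor of phenotypic modulation, -0.17, or 2.92 without cell 5. Egr1, a transcription factor induced by serum, had 0.35. Inflammatory and chemokine genes had 1.37 over 9 kept of 13 genes, 7 higher, and 3.11 without cell 7. Cxcl1, a chemokine, had 5540 reads in passage 2 cells and 2 in passage 1 cells, a ratio per total reads of 429 (119 to 3541). Cxcl12, also a chemokine, had a log2 ratio of -0.31 and Vcam1, an adhesion molecule, -0.65, or 0.60 without cell 7.

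Growth factor and receptor genes had a median of 0.56 over 13 kept of 18 genes, 7 higher (53.8%), which is near the 49.6% of all kept genes. Igfbp4, which binds insulin-like growth factors, had a log2 ratio of 4.95, or 8.01 without passage 1 cell 3. Tgfbr1, a TGF-beta receptor, had -2.50, or -1.63 without cell 5, and Pdgfrb, the PDGF receptor beta, -0.49, or 0.96 without cell 5. Proteases and their inhibitors had a median of 0.19 over 16 kept of 18 genes, and of -0.10 without cell 17. Of the 16, 9 were higher (56%), also near that share. Cst3, cystatin C, an inhibitor of cathepsins, was at 389 to 8706 (median 2865) in passage 2 cells and at 270, 309, 994 and 683 in passage 1 cells, and higher at passage 2 in 97.8% of pairs. Timp3, an inhibitor of metalloproteases, was at 9205 in passage 1 cell 5, and its log2 ratio of -0.40 was 1.99 without that cell. Mmp3, a metalloprotease, had -3.33, or -5.53 without passage 2 cell 21, and its passage 1 reads were all in cell 7. Adamts5, a protease of proteoglycans, had a log2 ratio of 3.42 in the retained cells and 0.01 over all cells, and was at 120 in passage 1 cell 7 and at 0 in the other passage 1 cells.

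Glycolysis genes had a median of -0.57 over 14 genes, 4 higher and 10 lower. Pkm, pyruvate kinase (chromosome 9, 59656368 to 59679375), ranged from 4.05 to 477 with a median of 120 in passage 2 cells, and was at 937, 1415, 493 and 815 in passage 1 cells. Every passage 2 cell was below every passage 1 cell, which held for 0.0354% of kept genes (3 genes, with Ripk3 and Tanc2), and the log2 ratio was -2.49. Aldoa, an aldolase, had -0.54. Pfkm, a phosphofructokinase, and Hk2, hexokinase, were higher at passage 2, Hk2 with a log2 ratio of 0.94 and Pfkm with 368 reads against 1, a ratio per total reads of 57.0 (10.2 to 2256). The log2 ratio of Pfkm was 3.33, and 2.09 without passage 2 cell 10. Housekeeping genes had a median of -0.04. Pericyte markers had 3 of 6 kept genes higher and 3 lower, 2 at least 2-fold each way, and a median of -0.08, or 2.20 without passage 1 cell 7 and 1.72 without cell 17. The potassium channel genes Kcnj8 and Abcc9 had log2 ratios of -2.07 and -1.32, with all passage 1 reads of Kcnj8 in cell 7, and the ratio of Abcc9 was 2.02 without cell 17 and -2.16 without passage 2 cell 27. Rgs5, which regulates G protein signals, was at 5.70 to 45752 (median 6988) in passage 2 cells and 107, 4.92, 545 and 13.3 in passage 1 cells, a log2 ratio of 5.85, or 7.83 without cell 7.

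**Figure D5:**
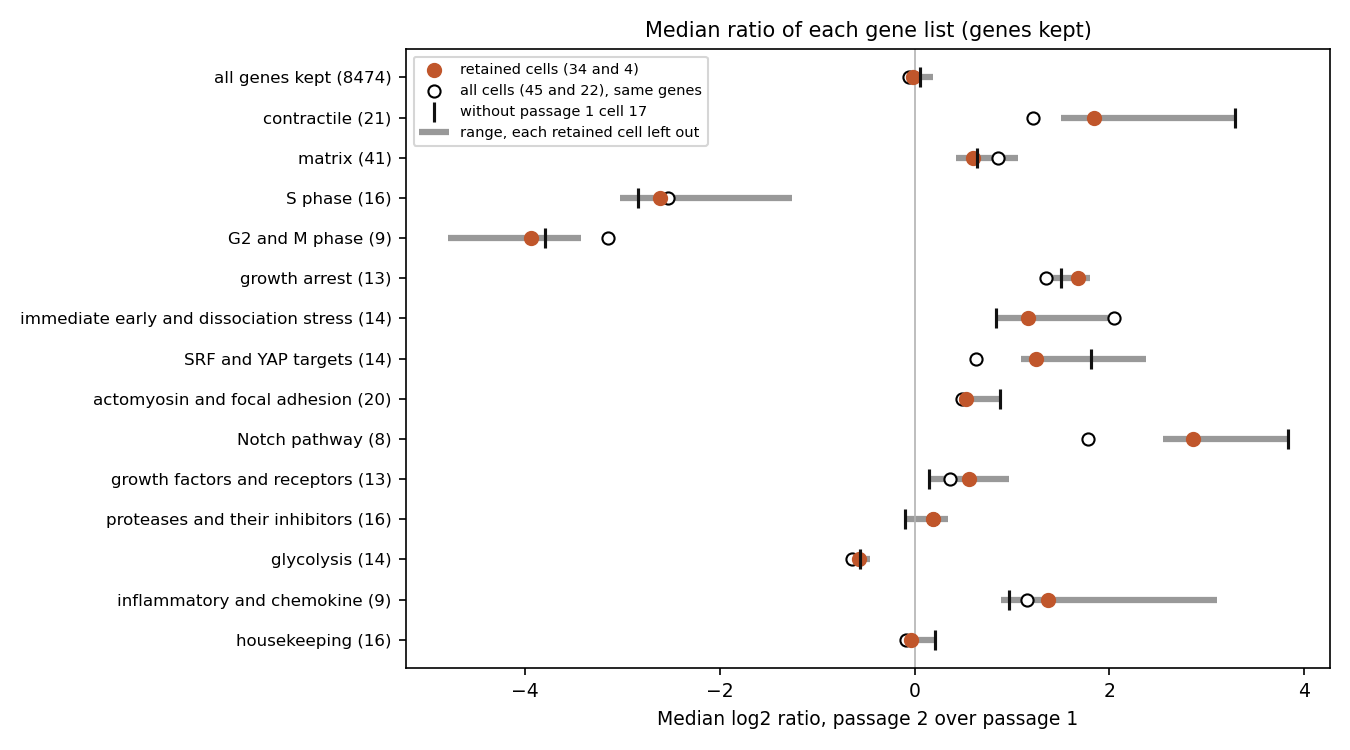
Median log2 ratio (passage 2 over passage 1) of the kept genes of each list in the retained cells (orange), over all 67 cells (open), and without passage 1 cell 17 (black ticks), with grey bars for the range when each retained cell is left out. The contractile median of 1.84 lies between 1.51 and 3.29, the median of the kept S phase genes of -2.61 stays below 0 and the median of all 8474 genes stays near 0.

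Across all kept genes, those with the highest ratios had to be detected in at least 50% of the passage 2 cells, to be higher at passage 2 in at least 80% of pairs and to hold their direction without any single cell, which 260 genes did. The first 10 were Pcsk5, Clu, Col14a1, Ccn4, Fst, Heph, Tmtc1, Fmod, Txnip and Cxcl1, none of which reached 10 in a passage 1 cell. Pcsk5, a proprotein convertase, had 23663 reads in passage 2 cells and 1 in passage 1 cells, a ratio per total reads of 3662 (657 to 144660). Its median at passage 2 was 12.8 and its highest value 4031, so part of the passage 2 cells carried it. Clu, clusterin, a secreted chaperone, ranged from 0 to 2343 (median 220) at passage 2 and was at 0, 0, 0 and 1.47 at passage 1.

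Several of the others encode secreted proteins. Col14a1, a collagen found at fibrils and a fibroblast marker here, ranged from 0 to 2697 (median 234) at passage 2 and was at 0.650, 2.46, 0 and 0 at passage 1. Fst, follistatin, which binds activin, had 5549 reads in passage 2 cells and 1 in passage 1 cells, a ratio per total reads of 859 (154 to 33928). Ccn4, a matricellular gene, had no read in the retained passage 1 cells and was at least 298-fold higher at passage 2 by the same floor. Txnip had 3898 reads in the retained passage 2 cells and none in the retained passage 1 cells. Over all 67 cells the log2 ratios of Pcsk5, Clu and Col14a1 were 4.21, 1.43 and 2.53, and those of Ccn4 and Txnip 2.80 and 3.54.

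At the other end, 554 genes met the same rule in the other direction, with detection in 3 or more of the 4 passage 1 cells, and the first 10 were Cenpk, Lss, Fignl1, Ripk3, Rrm2, Uhrf1, Cenpw, Tgfbi, Gk and Adam22. Cenpk and Cenpw belong to the kinetochore. Cenpk was at 0 to 1.45 in passage 2 cells and at 0, 148, 239 and 21.4 in passage 1 cells. Lss, lanosterol synthase, which makes cholesterol precursors, was at 0 to 20.2 (median 0) and at 3.25, 579, 31.3 and 196, with a log2 ratio of -6.31, or -4.93 without cell 5.

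Ripk3, a kinase of necroptosis, was the most even of these genes over the passage 1 cells. It was at 0 to 2.20 (median 0) in passage 2 cells and at 83.2, 86.1, 95.8 and 9.57 in passage 1 cells, with no overlap and a log2 ratio of -5.83. By contrast Fignl1, Cenpw and Adam22 rested on cell 5, which held 349, 249 and 533, and their log2 ratios of -6.02, -5.44 and -5.15 were -0.81, -0.79 and -0.93 without it. The ratios of Tgfbi and Gk, -5.36 and -5.23, were -3.05 without cell 5 and -1.97 without cell 17. B430306N03Rik was the gene with every passage 2 cell above every passage 1 cell (0.0118% of kept genes), at 0.818 to 54.7 in passage 2 cells and at most 0.650 in passage 1 cells.

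The similarity of whole profiles was described by the Spearman correlation over the 8474 kept genes. Passage 1 cells 3, 5, 7 and 17 had median correlations of 0.388, 0.340, 0.408 and 0.386 with the 34 retained passage 2 cells, and of 0.470, 0.450, 0.440 and 0.444 with the 18 removed passage 1 cells. With the other retained passage 1 cells the medians were 0.413, 0.382, 0.382 and 0.359. For cells 7 and 17 these were lower than the medians with passage 2 cells, and for cells 3 and 5 higher. For each of the 4 the most similar cell was a removed passage 1 cell. All 34 passage 2 cells had a higher median correlation with each other (0.446 over cells) than with the retained passage 1 cells (0.385). Cell 17, in spite of its contractile genes, was thus no closer to passage 2 cells than cells 3 and 7 were. Correlations of this kind also carry depth and library set, which differed between the passages.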

How the data were processed

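Single-cell RNA-seq of 67 cells was used, captured on a C1 chip and made into Nextera XT libraries per the labels' protocols. BWA, SAMtools, HTSeq, DESeq and GRCm38 are named per the submitters' processing notes, and their versions are not given in the sources used here. The deposited values are a signal per gene and cell that behaves as gene counts divided by 1 size factor per cell. Dividing each cell by its smallest step gave whole reads for 100% of 509576 values above 0, within 0.001. How strand and reads that map to several places were handled is not given in the sources used here. No value column was left unused (0).

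Genes entered when the retained cells of either passage averaged 10 or more and 25% of them or more held a read, leaving 8474 of 20000 detected genes and 97.9% of reads. The log2 ratio was log2(mean over passage 2 cells + 1) minus log2(mean over passage 1 cells + 1). The percentage of cell pairs higher at passage 2 counts ties evenly to both sides. No count test was used, since each passage is 1 sample. Cell shares have exact Clopper-Pearson intervals (95%), and read ratios exact binomial ones. These cover counting error only, since amplified reads are not independent molecules. A gene with no read at passage 1 was set against a floor of 3 reads over the group. No doublet caller was run on 67 cells.

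The named genes are the contractile and matrix genes, of each other list the members with the highest and lowest ratio and the highest mean, and the first 10 genes in each direction by the rule stated with them. Of housekeeping, cell cycle and marker lists not all such members are printed. Further genes of the other lists were named after their values were seen. Members, lists and markers were chosen with earlier results of these data known. The software was pandas 2.3.3, numpy 2.4.6, matplotlib 3.10.9 and scipy 1.17.1 under Python 3.11.15, with edgeR 4.0.16 in R 4.3.3 for TMM factors as an alternative scaling. The gene ratios were also tested on simulated data. Gene coordinates are GRCm38, and promoters come from RefSeq (GRCm38.p6).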

Additional observations from a re-analysis of the deposited data

Results flagged for a closer look

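Among the 4 retained passage 1 cells, 21 measures were looked at for a cell far from the others, and 6 had a gap to the nearest cell, divided by the whole range, above Dixon's 95% critical value for 4 samples. Chance flags about 1 in 20 such groups where values are normally distributed, which values with many zeros are not, and the measures share the same 4 cells. A gene with a read in only 1 of the 4 cells always gives 1, as Cnn1 and Myocd did. The flags are thus a description of these cells. Cell 17 was the high cell for the percent of reads in contractile genes (0.838), Myh11 (0.88), Cnn1 (1), Itga8 (0.852) and Myocd (1), with genes on the log2(value + 1) scale. For Spp1 it was the low cell (0.854), at 0 beside 1466, 5108 and 1630. Its smooth muscle markers, which are all contractile genes as well, took 0.675% of reads, against 0.00747%, 0.00224% and 0.0497% in cells 3, 5 and 7.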

How the results depend on the processing

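The contractile and matrix medians were above 0 under all 16 alternatives that gave a value. With no cells removed the contractile median was 1.22 and 1251 genes were at least 2-fold higher, with endothelial marker cells alone removed 1443 genes were, and with a threshold of 5, which left 2 passage 1 cells, the medians were 3.50 and 1.41. A stricter gene filter gave 821 genes higher and 1084 lower, and no filter 4713 higher, since other genes are tested. Medians over cells gave a contractile median of 1.26 with 1004 genes higher and 3812 lower, and means of log2 values 1331 and 3334, and the cause was not tested. These last 2 settings moved the median of all genes to -0.72 and -0.59. Leaving out each retained cell, with the gene filter applied again, gave 1.52 to 3.53 (contractile), 0.42 to 1.06 (matrix), 2248 to 2690 genes higher and 1849 to 2216 lower. A pseudocount of 0.1 moved 19 of 35 named genes by over 1.5 times and one of 10 moved 24. Myocd turned to -1.50 with cycling cells alone removed, a setting that counts some endothelial marker cells in. In the 5 passage 1 endothelial marker cells Myocd had a mean of 40.4 ± 90.3 (SD) and a median of 0. Cnn1 turned to -0.65 with passage 2 cells in the depth range of passage 1 cells (16 cells). The causes were not tested. Removing cells with at least 3 S phase genes at 10 gave no value, since all 4 passage 1 cells and 25 passage 2 cells met it. No paired analysis was possible because each passage is 1 sample and cell numbers only name cells. With 4 passage 1 cells, shares of cells are known within wide intervals.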
